A study of Mus musculus with 21 samples.

Results

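The genes described here are 9 genes of the ureteric bud and collecting duct of the embryonic mouse kidney: the receptor gene Ret, the Wnt ligand genes Wnt11 and Wnt9b, the transcription factor genes Gata3, Etv4 and Etv5, the calcium-binding protein gene Calb1, and the keratin genes Krt8 and Krt18. They were chosen by symbol, with earlier results of these data known, and are 9 of the 23827 gene rows that each of the 21 expression files holds. No symbol of the 9 occurred more than once. All 9 had reads in all 21 libraries, so every comparison below tested all of them.

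The study sequenced mRNA libraries from mouse embryos at embryonic day 14.5 (E14.5) that carried a floxed mCherry-tagged ribosomal protein L10a in the ROSA26 locus. Translating ribosome affinity purification (TRAP) pulls down tagged ribosomes and the mRNA bound to them, which gives a translatome. Total RNA of an organ gives a transcriptome. There were 7 groups of 3 libraries.

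Embryos of the genotype Sox2Cre+/-;Gt(ROSA)26Sor-mCherry-Rpl10a+/- gave the whole-organ groups, namely the kidney transcriptome, the kidney translatome, the forebrain transcriptome and the forebrain translatome. Sox2Cre recombines in all derivatives of the epiblast, so these embryos tag nearly every cell of the organ. The endothelial cell (EC) translatomes of kidney and brain came from Cdh5CreERT2+/-;Gt(ROSA)26Sor-mCherry-Rpl10a+/- embryos, in which Cre is driven by the endothelial Cdh5 gene and is active only after tamoxifen, given to the mother by gavage. The Emx1 lineage translatome came from Emx1Cre+/-;Gt(ROSA)26Sor-mCherry-Rpl10a+/- embryos, in which Cre is active in the dorsal telencephalon. Every group carried 1 copy of the tagged allele, which goes back to a single targeted clone of embryonic stem cells, and every library was made from pooled organs. The brain tissue was forebrain with part of the diencephalon. Replicates were separate tissue samples, so p-values below measure the spread between pooled samples, not between single embryos.

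The ureteric bud is an epithelial tube that grows out of the nephric duct and branches into the surrounding mesenchyme to form the collecting duct system. Glial cell line-derived neurotrophic factor (GDNF) from the mesenchyme acts on the Ret receptor at the bud tips, and Etv4 and Etv5 are ETS-family transcription factors switched on downstream of Ret, as is the tip ligand Wnt11. Wnt9b is made in the bud stalk and instructs nearby nephron progenitors, Gata3 is a zinc finger factor that the nephric duct and bud need, calbindin (Calb1) is a marker of bud and collecting duct epithelium, and the keratins Krt8 and Krt18 pair to form the intermediate filaments of simple epithelia.

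Sequence windows around the transcription starts of the pairs of genes whose levels ran most closely together over the 21 libraries (Krt8 with Krt18, and Wnt11 with Wnt9b, described further on) are printed here, so that what their starts share and do not share can be read directly. They come from RefSeq on mouse build GRCm38.p6, run from 250 bases before to 50 bases after an annotated start, and are written 5′ to 3′ on the strand of the gene. Krt8 and Krt18 are neighbours on chromosome 15 and face away from each other. The Krt8 window is chr15:102004293-102004592 (minus strand) and the Krt18 window is chr15:102027966-102028265 (plus strand). The window of the first of the Wnt11 starts is chr7:98834862-98835161 (plus strand) and that of Wnt9b is chr11:103749772-103750071 (minus strand). Letters searched for on both strands were AGATAA for GATA factors, CCGGAAGT for ETS factors and TATAAA for the TATA box. The GATA and ETS letters were chosen because the genes encode factors of those families, and the matches are in capitals.
Krt8: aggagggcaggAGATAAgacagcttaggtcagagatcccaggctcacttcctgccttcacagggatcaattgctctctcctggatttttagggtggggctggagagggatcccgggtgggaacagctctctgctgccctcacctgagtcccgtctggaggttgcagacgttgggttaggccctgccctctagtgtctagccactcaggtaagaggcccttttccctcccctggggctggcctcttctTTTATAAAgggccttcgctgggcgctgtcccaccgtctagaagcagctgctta
Krt18: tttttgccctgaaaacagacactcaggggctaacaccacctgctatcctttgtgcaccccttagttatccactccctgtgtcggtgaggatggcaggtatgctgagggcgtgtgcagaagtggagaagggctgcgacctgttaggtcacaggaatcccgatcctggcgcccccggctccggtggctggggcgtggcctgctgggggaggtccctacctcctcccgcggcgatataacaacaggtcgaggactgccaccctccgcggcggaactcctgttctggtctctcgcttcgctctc
Wnt11: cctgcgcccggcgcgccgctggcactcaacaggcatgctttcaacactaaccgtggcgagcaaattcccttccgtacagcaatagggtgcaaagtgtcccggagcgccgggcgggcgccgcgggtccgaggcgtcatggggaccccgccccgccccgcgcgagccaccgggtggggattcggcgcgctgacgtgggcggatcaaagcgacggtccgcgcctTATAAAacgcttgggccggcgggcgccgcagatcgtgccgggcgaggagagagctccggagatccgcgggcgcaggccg
Wnt9b: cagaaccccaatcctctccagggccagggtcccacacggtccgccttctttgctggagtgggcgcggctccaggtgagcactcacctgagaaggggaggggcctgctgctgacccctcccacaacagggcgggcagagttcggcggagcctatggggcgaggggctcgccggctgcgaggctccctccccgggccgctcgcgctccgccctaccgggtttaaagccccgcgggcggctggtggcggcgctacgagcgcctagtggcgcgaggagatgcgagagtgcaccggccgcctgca

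AGATAA occurred once, in the Krt8 window, 239 bases before the start, and 11.2% of the 32851 promoter windows of the table hold it. The letters TATAAA occurred in the Wnt11 window, 29 bases before the start, and in the Krt8 window on both strands at overlapping positions beside the start, against 13.6% of all windows. No window of the 9 genes in the table held CCGGAAGT, which 3.89% of all windows hold. The windows of Krt18 and Wnt9b held none of these letters. The 4 windows were rich in G and C, from 58.0% in Krt8 to 71.7% in Wnt9b, where the median of all windows was 52.7%. Windows were found for 6 of the 9 genes, with 8 starts in all, and Ret, Etv4 and Calb1 are named only.

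Libraries held 21760652 to 79231692 reads assigned to genes. The kidney translatome was the shallowest group, at 21760652 to 24605124 reads. The kidney EC translatome held 33237550 to 45166528 and the kidney transcriptome 31343319 to 51331105. The endothelial label was checked against 15 endothelial markers, all of which were higher in the kidney EC translatome than in the kidney translatome by a median of 3.03 on the log2 scale (Cdh5 by 3.16). Their summed level rose from 491 to 530.0 RPKM (reads scaled to transcript length and to mapped reads) in the kidney translatome libraries to 2683 to 3105 RPKM in the kidney EC libraries. Transcripts of genes listed as markers of other cells were still present in the EC libraries. Which cells they came from was not tested. The summed level of 22 general epithelial markers was 477 to 597 RPKM in the kidney translatome and 118 to 127 RPKM in the kidney EC translatome, with 19 of them at a mean of 1 RPKM or more there and none at 0. Of 18 listed collecting duct genes, 10 had a mean of 1 RPKM or more in the kidney translatome, with Wfdc2 at 139 RPKM and Hsd11b2 at 26.9 RPKM. Not all genes of that list are particular to the duct. Of the 10, Ptger1 and Ren1 are named after their values were seen. Ptger1 was at 14.8 RPKM there and at 16.7 RPKM in the forebrain translatome. Ren1 ran from 0 to 4.55 RPKM there, and its mean in the kidney EC translatome was 11.0 RPKM. Aqp2, the water channel of mature collecting duct, is named here after its values were seen. Its mean in the kidney translatome was 0.162 RPKM.

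**Figure D1:**
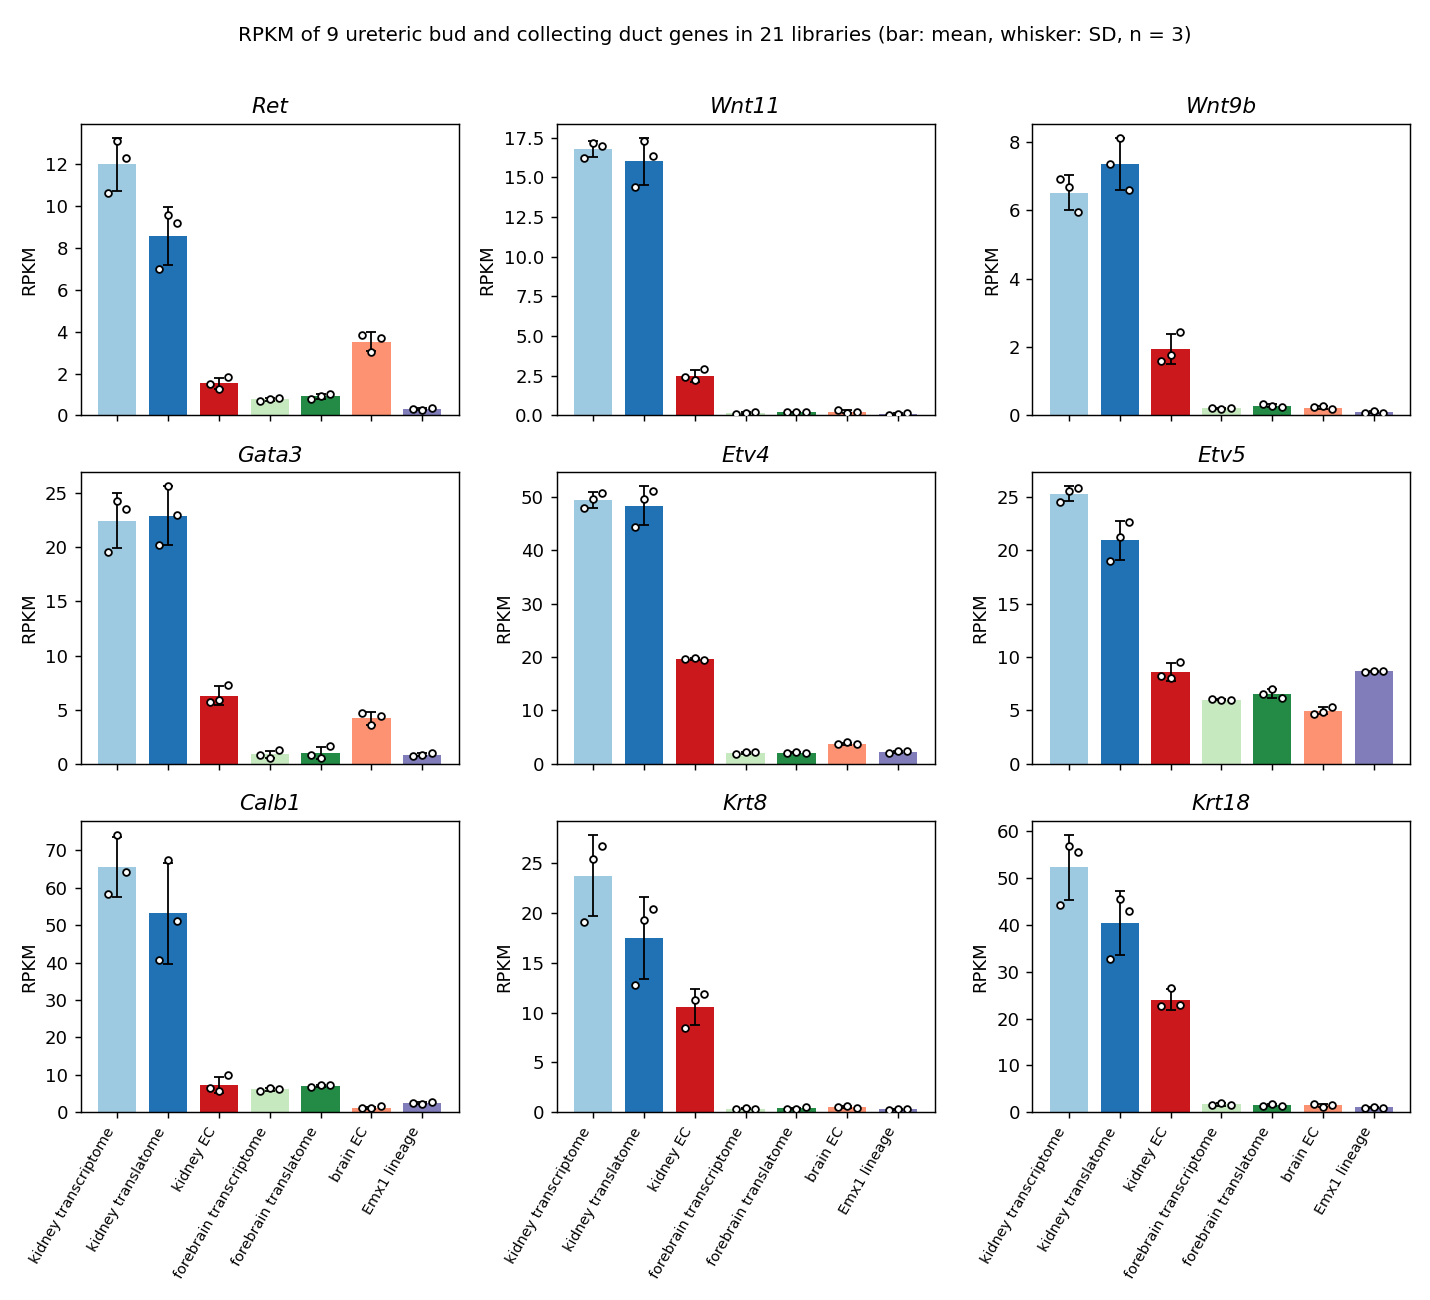
RPKM of the 9 genes (linear axis) in each of the 21 libraries, 1 point per library, grouped by organ and RNA source. Bars are group means and whiskers are SD (n = 3). In every panel the kidney transcriptome and kidney translatome hold the highest points, and the kidney EC points lie below them.

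In the whole kidney all 9 genes were well above the level at which single reads matter, with 564 or more reads for each gene in each kidney translatome library. On the RPKM scale, which allows for gene length, Calb1 was highest in the kidney translatome at 53.1 ± 13.5 (SD, n = 3), followed by Etv4 at 48.3 ± 3.61 and Krt18 at 40.4 ± 6.77, and the ranges of these neighbours overlapped. A middle set followed, with Gata3 at 22.9 ± 2.72, Etv5 at 20.9 ± 1.84, Krt8 at 17.5 ± 4.10 and Wnt11 at 16.0 ± 1.48. Each gene of that set overlapped the next one. Ret at 8.59 ± 1.38 and Wnt9b at 7.35 ± 0.767 were lowest, and these did not differ beyond their spread. The order in the kidney transcriptome was close to it, with Calb1 at 65.6 ± 7.99 first, Krt18 at 52.3 ± 6.99 second and Wnt9b at 6.52 ± 0.506 last.

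Ribosome-bound RNA was then compared with total RNA of the same kidneys, which asks whether a transcript's share of the translatome differs from its share of the transcriptome. None of the 9 genes passed an adjusted p of 0.001 in edgeR, the threshold used throughout, where 30.7% of the 19336 rows tested passed in either direction. Of the 9, 4 had an unadjusted p under 0.05 (edgeR), as had 14 of the 22 general epithelial genes. The share of all rows at that level is not given here. DESeq2 called 2 of the 9 (Ret, adjusted p = 1.68e-04, and Etv5, adjusted p = 6.00e-04) against 36.3% of all rows, and limma on log2(RPKM + 1) called none. At an adjusted p of 0.05, edgeR put 3 of the 9 lower (Ret, Etv5 and Krt18), against 26.1% of all rows.

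Ret, the GDNF receptor gene, had 10.6, 13.1 and 12.3 RPKM in the 3 kidney transcriptome libraries. The kidney translatome libraries of the same tissue samples had 7.01, 9.56 and 9.22 RPKM. All 3 ribosome-bound values were below all 3 total RNA values. The difference was -0.48 on the log2 scale (SE 0.11, adjusted p = 0.00488, edgeR), or 71.7% of the total RNA level.

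Etv5, an ETS factor gene downstream of Ret, had 24.5, 25.5 and 25.9 RPKM in total RNA and 19.0, 21.2 and 22.6 RPKM in ribosome-bound RNA. These groups did not overlap either. Its log2 difference was -0.27 (SE 0.06, adjusted p = 0.00285, edgeR). Ret and Etv5 were thus 2 of the 9 genes whose ribosome-bound values all lay below the total RNA values, where 29.8% of all rows did. The paralog Etv4 had 47.9, 49.6 and 50.8 RPKM in total RNA and 44.3, 49.6 and 51.1 RPKM in ribosome-bound RNA, with a log2 difference of -0.03 (SE 0.05, adjusted p = 0.673, edgeR).

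Both keratin genes had their lowest values in tissue sample 1. Krt18 had 44.2, 56.9 and 55.7 RPKM in total RNA and 32.7, 45.4 and 43.0 RPKM in ribosome-bound RNA, and Krt8 had 19.1, 25.4 and 26.7 RPKM against 12.8, 19.3 and 20.4 RPKM. The groups overlapped for both genes. Log2 differences were -0.37 (SE 0.12, adjusted p = 0.0268, edgeR) for Krt18 and -0.44 (SE 0.17, adjusted p = 0.0517, edgeR) for Krt8.

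Calb1 had the largest SD of RPKM of the 9 genes in both groups, with 58.3, 74.1 and 64.2 RPKM in total RNA and 40.8, 67.5 and 51.1 RPKM in ribosome-bound RNA. Its log2 difference was -0.30 (SE 0.15, adjusted p = 0.122, edgeR), and the groups overlapped. For the Wnt ligand genes, Wnt11 had 16.2, 17.2 and 17.0 RPKM in total RNA and 14.4, 17.3 and 16.3 RPKM in ribosome-bound RNA, and Wnt9b had 6.93, 6.67 and 5.95 against 7.36, 8.12 and 6.58 RPKM. The log2 differences were -0.07 (SE 0.07) and 0.17 (SE 0.09), with overlapping groups for both. Gata3 had 19.6, 24.3 and 23.5 RPKM against 20.2, 25.6 and 22.9 RPKM, a log2 difference of 0.03 (SE 0.09).

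Each tissue sample gave both a transcriptome and a translatome. Taken as the log2 ratio of ribosome-bound to total RPKM of the same sample, Ret gave -0.60, -0.46 and -0.42, Etv5 gave -0.37, -0.26 and -0.19, and Krt8 gave -0.58, -0.40 and -0.39. Krt18 gave -0.44, -0.32 and -0.37 and Calb1 gave -0.52, -0.13 and -0.33. All 3 ratios of each of these 5 genes were below 0, the 3 ratios of Wnt9b (0.09, 0.28 and 0.15) were above 0, and those of Wnt11, Gata3 and Etv4 lay on both sides of 0. Groups that do not overlap give 3 ratios on 1 side of 0, and they made up 56.8% of all rows tested. Other rows with 3 ratios on 1 side were not counted. Libraries of the same tissue sample deviated together from their group means (correlations over genes of 0.541 to 0.662). With the tissue sample as a block, edgeR called those 5 genes lower, where 25.1% of all rows were called lower under the block. The blocked adjusted p (edgeR) was 1.75e-27 for Ret, 1.62e-10 for Etv5, 4.83e-17 for Krt8, 5.64e-16 for Krt18 and 1.05e-15 for Calb1. That fit shares its spread fully across genes, so these p-values do not measure the spread of each gene's own 3 ratios. The blocked log2 differences ran from -0.28 for Etv5 to -0.49 for Ret.

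Tissue sample 1 had the lowest level of 8 of the 9 genes in the kidney transcriptome and in the kidney translatome alike. How many of all rows were lowest in that sample was not counted, so this order cannot be called particular to the 9 genes. Without kidney translatome replicate 3, edgeR called Etv5 lower at -0.33 (adjusted p = 8.45e-04). Sequencing lanes were partly shared between these groups. One lane held all 3 transcriptome libraries and kidney translatome replicate 3. Within it the log2 difference was -0.38 for Ret, -0.15 for Etv5, -0.35 for Calb1, -0.21 for Krt8 and -0.27 for Krt18, with a single translatome library, which is assumed to vary like the transcriptome libraries.

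**Figure D2:**
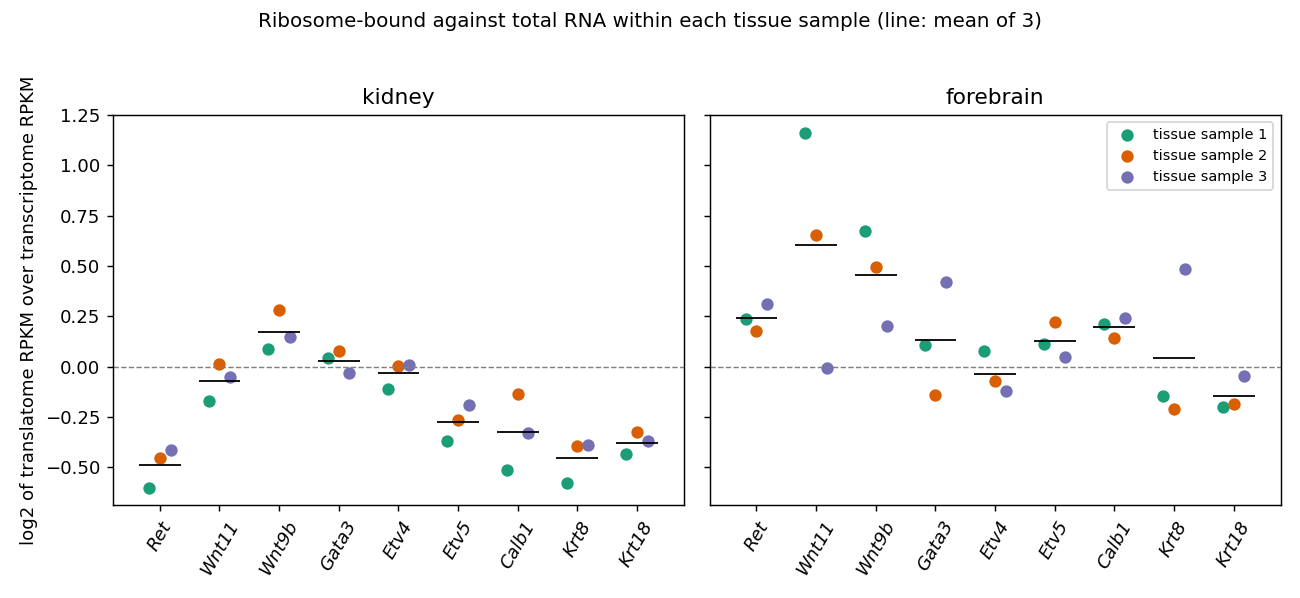
Log2 ratio of translatome to transcriptome RPKM of each tissue sample for the 9 genes, kidney and forebrain in separate panels, 1 point per tissue sample with a line at 0. Kidney points of Ret, Etv5, Calb1, Krt8 and Krt18 all lie below 0 and those of Wnt9b all lie above 0, while the forebrain points of Wnt11 and Krt8 are spread widest, at levels of few reads.

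The pathway lists gave the setting for these values. Of 23 other genes of Ret and FGF signalling, 3 were higher in the kidney translatome than in the transcriptome (Bmp4 0.63, Spry1 0.41 and Spry2 0.37 on the log2 scale) and none was lower. Bmp4 is a bone morphogenetic protein, and the Sprouty genes encode feedback inhibitors of receptor tyrosine kinases. Of 20 Wnt pathway partners, 2 were higher and 3 lower, with the stabilising ligand gene Rspo3 at 0.78 and Ctnnb1, which encodes beta-catenin, at -0.52. Of 21 other transcription factor genes of the developing kidney, 3 were higher (the retinoic acid receptor genes Rara, 0.72, and Rarb, 0.62, and Hoxa11, 0.55). In that list 7 were lower, led by Grhl2 at -0.71, Pax8 at -0.61 and Lhx1 at -0.49. Not all genes of the list are particular to the bud. Among 22 general epithelial genes, 4 were lower and none higher, and the epithelial cadherin gene Cdh1 was at -0.59. The median log2 difference was -0.27 over the 9 genes, -0.13 over the general epithelial list and -0.03 over all rows tested.

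The kidney EC translatome was compared with the kidney translatome to ask how far transcripts of the bud epithelium were reduced when ribosomes of endothelial cells were pulled down. EdgeR called 7 of the 9 genes lower, where 15.0% of the 18940 rows tested were called lower. The median of the 9 genes was -1.50 on the log2 scale, against -0.04 over all rows. The genes fell by very different amounts, and the keratin pair did not pass the test. Because the libraries of the EC groups were sequenced in lanes of their own, group and lane cannot be told apart in any comparison with them. The EC groups also differed from the whole-organ groups in Cre driver and in the tamoxifen that this driver needs. Kidney EC libraries pooled 6 organs each and whole-kidney libraries 4. These differences cannot be told apart from the cell type either. Nor can fewer cells of a type and less RNA per cell be told apart, here and between the organs.

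Calb1 fell furthest. It had 40.8, 67.5 and 51.1 RPKM in the kidney translatome and 6.54, 5.64 and 9.84 RPKM in the kidney EC translatome, a log2 change of -2.49 (SE 0.21, adjusted p = 2.30e-06, edgeR). The tip ligand gene Wnt11 went from 14.4, 17.3 and 16.3 RPKM to 2.39, 2.20 and 2.93 RPKM, a log2 change of -2.31 (SE 0.12, adjusted p = 4.70e-08, edgeR). Ret went from 7.01, 9.56 and 9.22 RPKM to 1.48, 1.28 and 1.82 RPKM, a log2 change of -2.15 (SE 0.16, adjusted p = 6.52e-07, edgeR). For these 3 genes every EC library lay far below the lowest whole-kidney library.

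Wnt9b and Gata3 were lowered less. Wnt9b went from 7.36, 8.12 and 6.58 RPKM to 1.59, 1.78 and 2.43 RPKM (log2 change -1.57, SE 0.15, adjusted p = 5.57e-06, edgeR). Gata3 went from 20.2, 25.6 and 22.9 RPKM to 5.71, 5.89 and 7.28 RPKM (log2 change -1.50, SE 0.11, adjusted p = 8.42e-07, edgeR). No EC library overlapped a whole-kidney library for either gene.

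The ETS genes were lowered by less than 1 on the log2 scale. Etv4 went from 44.3, 49.6 and 51.1 RPKM to 19.7, 19.8 and 19.4 RPKM (log2 change -0.94, SE 0.07, adjusted p = 4.15e-07, edgeR), and its EC libraries were the most alike of any gene of the 9. Etv5 went from 19.0, 21.2 and 22.6 RPKM to 8.26, 8.02 and 9.52 RPKM (log2 change -0.93, SE 0.09, adjusted p = 6.78e-06, edgeR). Both kept their groups apart.

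The keratin genes stood closest to their whole-kidney level. Krt8 had 12.8, 19.3 and 20.4 RPKM in the kidney translatome and 8.46, 11.3 and 11.9 RPKM in the kidney EC translatome, with a log2 difference of -0.37 (SE 0.17, adjusted p = 0.0906, edgeR). Krt18 had 32.7, 45.4 and 43.0 RPKM against 22.6, 26.6 and 23.0 RPKM, with a log2 difference of -0.39 (SE 0.11, adjusted p = 0.0128, edgeR). As RPKM, all 3 EC values of both genes lay below all 3 whole-kidney values, as did those of the other 7 genes, where 50.0% of all rows lay below. Krt18 became the most abundant of the 9 genes in the kidney EC translatome at 24.1 ± 2.17 RPKM, and Ret the least at 1.53 ± 0.276.

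How the libraries were scaled changed the size of these differences. The composition factors of edgeR's TMM scaling were 0.872 to 0.889 for the EC libraries and 1.13 to 1.14 for the kidney translatome libraries. By TMM Krt18 was at 76.3% and Ret at 22.6% of the kidney translatome, and by mean RPKM they were at 59.6% and 17.8%. With total counts alone the median of all rows moved from -0.04 to -0.41, Krt18 was called lower at -0.76 (adjusted p = 1.28e-04, edgeR), Krt8 was at -0.74 (adjusted p = 0.00248) and 8.26% of all rows were higher and 29.9% lower, against 16.7% and 15.0% by TMM. Without kidney translatome replicate 1, the library with the lowest values of both keratins, edgeR called Krt18 lower at -0.52 (adjusted p = 6.60e-04).

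Other epithelial and non-endothelial transcripts gave the scale for these changes. Of the 22 general epithelial genes, 19 were lower in the kidney EC translatome and none was higher, with a median of -1.88 on the log2 scale, and the claudin gene Cldn6 at -2.83, Epcam at -2.58 and Mal at -2.55 were lowest. The other 3 keratin genes of that list are named here after their values were seen. Krt7 was at -0.58 (adjusted p = 3.47e-04, edgeR) and Krt19 at 0.34 (adjusted p = 0.0764, edgeR), with Krt19 at 7.91 ± 1.53 RPKM in the kidney translatome and 7.86 ± 1.12 RPKM in the kidney EC translatome. Krt20 was at 1.05 (adjusted p = 0.0107, edgeR), at the low levels of 0.360 ± 0.105 and 0.590 ± 0.0595 RPKM. The summed level of 10 nephron progenitor markers was 363 to 405 RPKM in the kidney translatome and 47.6 to 63.8 RPKM in the kidney EC translatome, and 9 of them were lower. Of 12 stromal markers 10 were lower, and of 9 macrophage markers 9 were lower. The list of early nephron and podocyte genes went both ways, with 6 of 12 higher and 5 lower. The podocyte genes Podxl (2.25 on the log2 scale), which endothelium also makes, and Nphs1 (1.63) were among the higher ones, and the early nephron genes Fgf8 (-2.50), Wnt4 (-1.75) and Lhx1 (-1.44) were lower. The summed level of the list was 433 to 500.4 RPKM in the kidney translatome and 496 to 555 RPKM in the kidney EC translatome. The part that such other cell types played in the levels of the 9 genes was not tested.

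**Figure D3:**
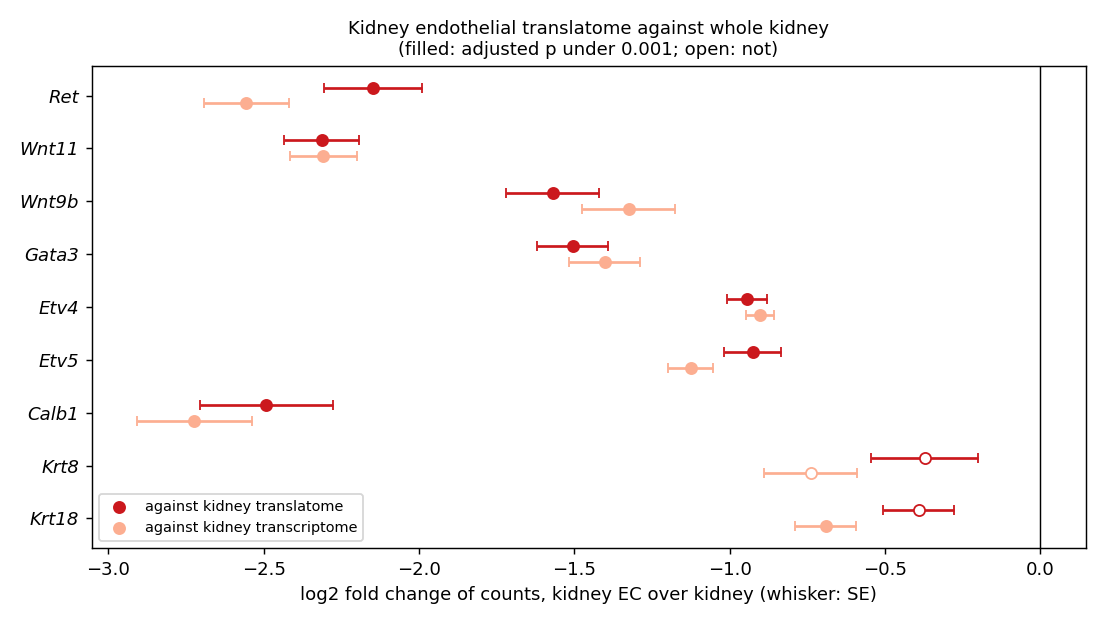
Log2 fold changes of the 9 genes in the kidney EC translatome against the kidney translatome and against the kidney transcriptome, with whiskers of 1 SE. Against the kidney translatome the 9 genes run from -2.49 (Calb1) to -0.37 (Krt8). The medians of the general epithelial genes (-1.88) and of the endothelial genes (3.03) in that comparison are not drawn.

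In the Ret and FGF list 16 of 23 genes were lower and 3 higher in the kidney EC translatome. The coreceptor genes Gfra3 (-2.72 on the log2 scale) and Gfra1 (-2.28) and the mesenchymal ligand gene Fgf10 (-2.24) fell most, and the genes that rose were Dusp6 (1.30), a phosphatase of ERK, Spry4 (1.18), and the chemokine receptor gene Cxcr4 (1.04). Of the Wnt partners 12 of 20 were lower, among them the antagonist gene Dkk1 (-2.48) and the ligand genes Wnt6 (-2.14) and Wnt7b (-2.02), and 4 were higher, led by Ctnnb1 (1.20), the receptor gene Fzd4 (0.90) and the coreceptor gene Lrp5 (0.87). Of the 21 kidney transcription factor genes none was higher and 14 were lower, among them Hoxa11 (-2.42) and Emx2 (-2.32). In the collecting duct list 8 of 18 were lower and none was higher, with Wfdc2 (-3.69), the steroid enzyme gene Hsd11b2 (-2.32) and the angiotensin receptor gene Agtr2 (-2.06) lowest. Agtr2 is also made outside the duct.

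With total RNA of the kidney in place of ribosome-bound RNA as the reference, edgeR called 8 of the 9 genes lower in the kidney EC translatome, where 18.4% of the 19335 rows tested were lower. Both comparisons use the same EC libraries, so they are not independent. The log2 change was -2.56 for Ret, -2.31 for Wnt11, -1.33 for Wnt9b, -1.40 for Gata3, -0.90 for Etv4, -1.13 for Etv5 and -2.72 for Calb1. Krt18 was lower at -0.69 (SE 0.10, adjusted p = 1.62e-04, edgeR), and Krt8 did not pass at -0.74 (SE 0.15, adjusted p = 0.00165, edgeR). Krt18 lost its call without kidney EC translatome replicate 1 (-0.66, adjusted p = 0.00141), while Krt8 gained one without kidney transcriptome replicate 1, with DESeq2 (adjusted p = 5.35e-06), with limma, with total counts alone and in 1 fit of all 21 libraries.

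The kidney was next compared with the forebrain, an organ without a ureteric bud. All 9 genes were higher in the kidney in total RNA, where 26.3% of 19841 rows were called higher, and all 9 in ribosome-bound RNA, where 26.2% of 19241 rows were. No kidney library overlapped a forebrain library for any of the 9 genes, where 43.7% of all rows lay above in total RNA and 42.6% in ribosome-bound RNA. Etv5 differed least between the organs and Wnt11 most. Within each RNA fraction the kidney and forebrain libraries shared no lane, so organ and lane cannot be told apart in these comparisons.

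For Wnt11, the forebrain transcriptome libraries had 0.109, 0.127 and 0.210 RPKM, from 13 to 30 reads each, against 16.2, 17.2 and 17.0 RPKM in the kidney transcriptome. This was a 97.6-fold difference (log2 6.61, SE 0.15, adjusted p = 2.15e-11, edgeR). Krt8 came next, with forebrain transcriptome values of 0.349, 0.441 and 0.346 RPKM and a 54.2-fold difference (log2 5.76, SE 0.16, adjusted p = 1.04e-10, edgeR).

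Wnt9b (28.0-fold), Krt18 (26.9-fold), Gata3 (22.6-fold) and Etv4 (20.4-fold) followed in total RNA, all with adjusted p-values of 8.99e-09 or below. Their ribosome-bound log2 differences were 4.48, 4.53, 4.31 and 4.36. In the forebrain transcriptome, Krt18 had 1.61, 2.00 and 1.48 RPKM, Etv4 had 1.92, 2.27 and 2.16 RPKM, and Wnt9b had 0.206, 0.196 and 0.212 RPKM. These are 3.14% to 4.28% of the kidney means.

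Ret, Calb1 and Etv5 kept the highest forebrain levels relative to the kidney. Ret had 0.669, 0.808 and 0.828 RPKM in the forebrain transcriptome and was 13.2-fold higher in the kidney (log2 3.73, SE 0.11, adjusted p = 1.12e-10, edgeR). Calb1, which neurons also make, had 5.82, 6.50 and 6.13 RPKM and was 9.34-fold higher in the kidney (log2 3.22, SE 0.08, adjusted p = 5.83e-11, edgeR). Etv5, which neural progenitors also make, had 6.04, 6.01 and 6.00 RPKM and was 3.69-fold higher in the kidney (log2 1.88, SE 0.05, adjusted p = 4.33e-11, edgeR). In ribosome-bound RNA the forebrain mean was 31.4% of the kidney mean for Etv5, 13.3% for Calb1 and 10.6% for Ret, and 1.36% to 4.43% for the other 6 genes.

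**Figure D4:**
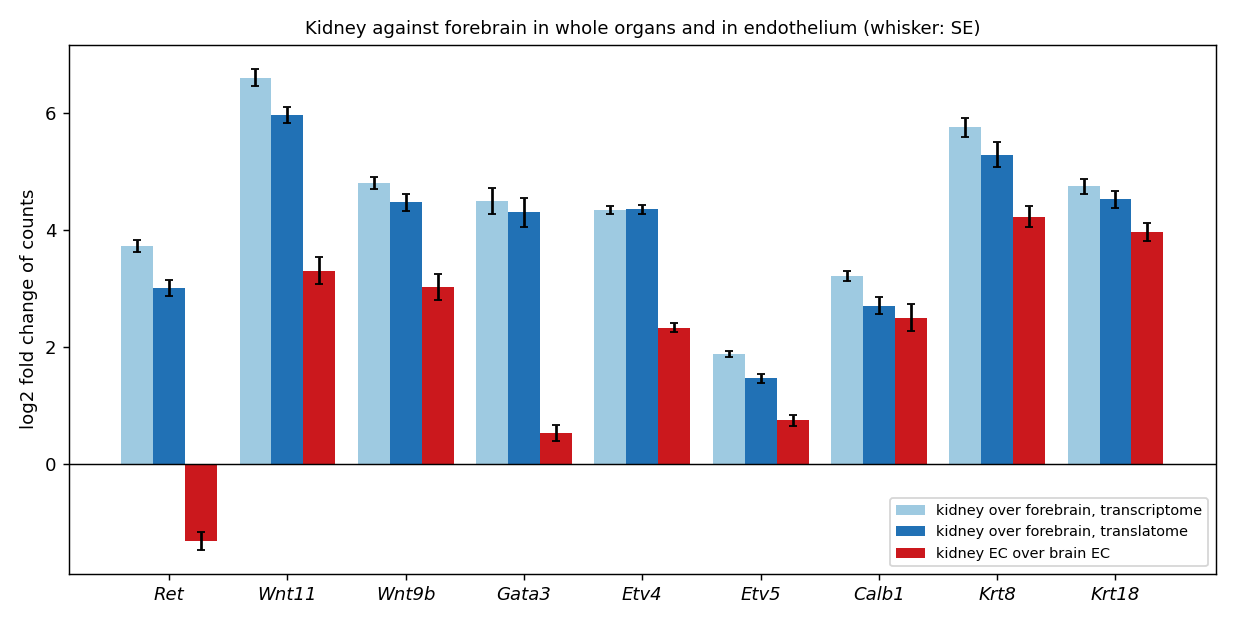
Log2 fold changes of the 9 genes between kidney and forebrain with whiskers of 1 SE, for total RNA and for ribosome-bound RNA. Kidney EC against brain EC is drawn beside them. In the whole organs all values are above 0 and run from 1.47 (Etv5, ribosome-bound RNA) to 6.61 (Wnt11, total RNA). In the EC series only Ret is below 0.

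The partner lists were read in the same way. In total RNA 18 of the 23 Ret and FGF genes were higher in the kidney and none was lower, led by the ligand gene Gdnf (log2 7.54), the receptor gene Met (4.24) and Fgf10 (4.00). Wnt partners went both ways, with 11 higher in the kidney, among them Dkk1 (6.11) and Wnt4 (5.03), and 7 higher in the forebrain, among them Wnt7b (-3.22 as kidney against forebrain) and the Wnt acylase gene Porcn (-2.71). Of the listed kidney transcription factor genes 18 of 21 were higher in the kidney. The exceptions that were lower there were Sox8 (-1.80) and Sox9 (-1.30), which neural progenitors and glia also make. All 22 general epithelial genes and 11 of 18 collecting duct genes were higher in the kidney.

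The forebrain libraries also gave ribosome-bound against total RNA. EdgeR called none of the 9 genes, where 37.1% of 19446 rows passed in either direction. An unadjusted p under 0.05 (edgeR) was reached by 3 of the 9 and by 4 of the 22 general epithelial genes. No share of all rows at that level is given here. DESeq2 and limma called none of the 9. Calb1 had 5.82, 6.50 and 6.13 RPKM in total RNA and 6.74, 7.17 and 7.23 RPKM in ribosome-bound RNA, with no overlap (log2 difference 0.22, SE 0.08, adjusted p = 0.0222, edgeR). Wnt9b, at 34 to 68 reads a library in the forebrain translatome, had 0.329, 0.275 and 0.244 RPKM there, all above its forebrain transcriptome values (log2 difference 0.51, SE 0.20, adjusted p = 0.0392, edgeR). With Etv5, these were the 3 of 9 genes whose ribosome-bound values all lay above, where 28.8% of all rows did.

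Whether the ribosome-bound to total difference itself differed between the organs was tested as an interaction over the 12 Sox2Cre libraries. EdgeR called none of the 9 genes, where 6.47% of rows passed in either direction. An unadjusted p under 0.05 (edgeR) was reached by 4 of the 9 and by 9 of the 22 general epithelial genes. No share of all rows at that level is given here. DESeq2 called 1 of the 9, Etv5, against 13.3% of all rows. The interaction of Etv5 was -0.41 on the log2 scale (SE 0.09, adjusted p = 0.00253, edgeR), which is kidney minus forebrain, and that of Ret was -0.71 (SE 0.18, adjusted p = 0.0107, edgeR). With tissue samples as a block Ret (-0.73, adjusted p = 4.48e-07), Etv5 (-0.41, adjusted p = 5.86e-05) and Calb1 (-0.53, adjusted p = 4.14e-06) were called lower by edgeR, where 17.1% of rows were called in either direction. Without kidney translatome replicate 3 the unblocked fit called Etv5 at -0.47.

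The EC translatomes of kidney and brain share a Cre driver and differ in organ. Of the 9 genes, 7 were higher in the kidney EC translatome, where 16.9% of 19238 rows were, and Ret was lower, where 20.1% were. The keratins differed most. Krt8 had 8.46, 11.3 and 11.9 RPKM in the kidney EC translatome and 0.536, 0.634 and 0.463 RPKM in the brain EC translatome, a log2 difference of 4.23 (SE 0.18, adjusted p = 8.74e-09, edgeR). Krt18 had 22.6, 26.6 and 23.0 RPKM against 1.72, 1.09 and 1.64 RPKM, a log2 difference of 3.97 (SE 0.16, adjusted p = 5.21e-09, edgeR).

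Wnt11 was higher by 3.31, Wnt9b by 3.03, Calb1 by 2.51, Etv4 by 2.33 and Etv5 by 0.75 on the log2 scale. Ret went the other way, with 1.48, 1.28 and 1.82 RPKM in the kidney EC translatome and 3.86, 3.02 and 3.70 RPKM in the brain EC translatome (log2 difference -1.31, SE 0.15, adjusted p = 2.30e-05, edgeR). All 3 brain EC values of Ret were above all 3 kidney EC values. Gata3 did not pass in edgeR, with 5.71, 5.89 and 7.28 RPKM against 4.70, 3.55 and 4.43 RPKM (log2 difference 0.53, SE 0.13, adjusted p = 0.00545, edgeR), and only DESeq2 called it (adjusted p = 9.24e-04). The summed general epithelial level was 118 to 127 RPKM in the kidney EC translatome and 64.1 to 80.7 RPKM in the brain EC translatome, and 17 of its 22 genes were higher in the former. Ocln (-4.31) and Mal (-2.61) were the lower ones. Occludin is a tight junction protein of brain endothelium as well.

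Within the brain, Ret and Gata3 were higher in endothelial ribosomes than in all forebrain ribosomes. Ret went from 0.787, 0.912 and 1.03 RPKM in the forebrain translatome to 3.86, 3.02 and 3.70 RPKM in the brain EC translatome (log2 change 2.26, SE 0.13, adjusted p = 3.36e-09, edgeR). Gata3 went from 0.851, 0.529 and 1.66 RPKM to 4.70, 3.55 and 4.43 RPKM (log2 change 2.36, SE 0.28, adjusted p = 5.63e-06, edgeR). Every brain EC library lay above every forebrain library for both genes.

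Etv4 rose from 2.02, 2.16 and 1.98 RPKM to 3.67, 4.00 and 3.65 RPKM (log2 change 1.17, SE 0.11, adjusted p = 6.56e-07, edgeR), so 3 of the 9 genes were higher, where 24.8% of 19103 rows were. Calb1 was the 1 lower gene, where 21.4% of rows were lower, and it fell from 6.74, 7.17 and 7.23 RPKM to 1.14, 1.04 and 1.59 RPKM (log2 change -2.20, SE 0.14, adjusted p = 1.51e-08, edgeR). Etv5, which had 6.53, 7.00 and 6.21 RPKM in the forebrain translatome and 4.69, 4.87 and 5.34 RPKM in the brain EC translatome, was at -0.12 by TMM and was called lower at -0.41 with total counts alone (adjusted p = 6.72e-04, edgeR), where the median of all rows was -0.30. The keratins and Wnt genes had 1.72 RPKM or less in every brain EC library. Neural markers summed to 439 to 564 RPKM in the brain EC translatome, and 10 of 11 were lower there than in the forebrain translatome. Other lists held genes that were higher there, with 7 of 12 kidney stroma genes (summed level 122 to 135 RPKM in the forebrain translatome and 136 to 192 RPKM in the brain EC translatome), 6 of 12 early nephron and podocyte genes (141 to 149 RPKM in the former and 242 RPKM or more in the latter), 4 of 10 nephron progenitor genes and 5 of 22 general epithelial genes. Among the last, Ocln rose by 4.09, Mal by 4.00 and Cdh1 by 3.31 on the log2 scale, and Cdh1 went from 0.989 ± 0.260 to 7.87 ± 4.58 RPKM. The part of other cells in these values was not tested.

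In the Emx1 lineage translatome, 3 of the 9 genes were lower than in the forebrain translatome, where 12.8% of 19006 rows were, and 1 was higher, where 9.20% were. Calb1 fell from 6.74, 7.17 and 7.23 RPKM to 2.54, 2.16 and 2.64 RPKM (log2 change -1.46, SE 0.09, adjusted p = 4.36e-09, edgeR), and Ret fell to 0.323, 0.239 and 0.336 RPKM (log2 change -1.52, SE 0.16, adjusted p = 1.77e-06, edgeR). Wnt9b fell by 1.75 on the log2 scale (SE 0.25, adjusted p = 5.29e-05, edgeR), at 17 to 23 reads a library in the Emx1 lineage, and lost its call without forebrain translatome replicate 1 (-1.62, adjusted p = 0.00130). Etv5 rose from 6.53, 7.00 and 6.21 RPKM to 8.61, 8.70 and 8.69 RPKM (log2 change 0.45, SE 0.06, adjusted p = 2.59e-05, edgeR), and did not pass with limma at a pseudocount of 1 (0.35, adjusted p = 0.00243) or 0.1 (0.39, adjusted p = 0.00149). The Emx1 lineage libraries held the highest Etv5 values of any brain library and had a lane of their own, so group and lane cannot be told apart.

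Over the 21 libraries the closest pairs among the 9 genes were Krt8 with Krt18 (Pearson r of log2(RPKM + 1), 0.996) and Wnt11 with Wnt9b (0.995), and the least alike were Ret and Calb1 (0.769). These values are descriptions, since the libraries of a group share organ, driver and lane and the kidney against brain contrast sets most of them. Among 11837 genes with a group mean of 5 RPKM or more, those nearest to Krt18 were Krt7 (0.997), Krt8 (0.996) and Hoxb3 (0.995). The nearest to Wnt11 were Prss8 (0.998), Spint1 (0.998) and Scnn1g (0.998), and to Wnt9b they were the nephron progenitor gene Six2 (0.997), Hoxa11as (0.997) and Emilin3 (0.997). Etv4 was nearest to Dusp9 (0.997), Gm266 (0.997) and Shisa3 (0.996), and Calb1 to the Ret coreceptor gene Gfra1 (0.994), Uncx (0.988) and Axl (0.987). Ret was nearest to Crispld2 (0.988), Ap5b1 (0.987) and Tfap2b (0.982), Gata3 to St14 (0.989), Kif16b (0.987) and Ly6a (0.985), and Etv5 to Cth (0.986), Prkci (0.986) and Arhgef19 (0.985). Krt8 was nearest to Krt18, Krt7 (0.996) and Akr1b7 (0.995).

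By the mouse build GRCm38, Ret lies at chr6:118151745-118197718, Wnt11 at chr7:98835112-98855195, Wnt9b at chr11:103727364-103749821, Gata3 at chr2:9857078-9890034, Etv4 at chr11:101769742-101785371, Etv5 at chr16:22381309-22439719, Calb1 at chr4:15881264-15908064, Krt8 at chr15:101996698-102004482 and Krt18 at chr15:102028180-102032027. All 9 are protein-coding. The library kit keeps no strand, so reads of overlapping genes cannot be told apart. Such partners are Gm8398, a processed pseudogene that shares 364 bases with Wnt11, Gm13256, 4930412O13Rik and 9230102O04Rik within Gata3, and Gm36026, which shares 271 bases with Krt8. Krt8 also has the processed pseudogene Krt8-ps, so that some of its reads are uncertain.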

How the data were processed

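Each library's deposited file held, per gene row, a read count and an RPKM value. Per the study's methods the authors mapped reads to GRCm38 (mm10) with RUM and computed RPKM with the program rpkmforgenes, with refGene models from UCSC, after library preparation with a TruSeq RNA kit, a kit that does not mark strand. Counts are the deposited raw reads per gene, and the program that counted them is not given in the sources used here. RPKM is the authors' normalization to gene length and mapped reads.

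Counts were tested here with edgeR 4.0.16 (R 4.3.3; TMM scaling, quasi-likelihood F test) for 9 pairs of groups of 3 libraries and for the interaction of organ and RNA fraction over 12 libraries, on rows with at least 1 read, with Benjamini-Hochberg adjustment over all rows tested and a threshold of 0.001, in place of the DESeq used by the study. Alternatives were DESeq2 1.42.0, RLE and total-count scaling, at least 10 reads in 3 libraries, a threshold of 0.05, limma 3.58.1 on log2(RPKM + 1) and log2(RPKM + 0.1), 1 fit of all 21 libraries, the lane holding both groups, the replicate number as a block, and each library left out in turn. The fits were also run on simulated counts, with the same dispersion for all genes and changes of 1 or more on the log2 scale. No effect shared by libraries of a tissue sample was simulated. Those runs therefore do not check the blocked p-values or smaller differences. Tables were handled in Python 3.11.15 with pandas 2.3.3, numpy 2.4.6 and scipy 1.17.1, and drawn with matplotlib 3.10.9.

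The 9 genes and the 15 gene lists were chosen with earlier results of these data known. From each list at most the 3 highest and 3 lowest genes past the threshold with a mean of 1 RPKM or more were named; other choices are stated where made. Likeness is Pearson r of log2(RPKM + 1), with 3 genes named per member. Genes of the early nephron and podocyte, adrenal cortex, sympathoadrenal cells, blood and choroid plexus were counted too: in the kidney EC against the kidney translatome 6 of 12, 0 of 6, 1 of 9, 0 of 7 and 1 of 7 tested were higher, and 5, 1, 0, 2 and 2 were lower. Of the 11 neural markers 1 was higher and 2 were lower.

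Kidney and forebrain transcriptomes and translatomes with the same number came from the same tissue sample, per the study's sample table, and deviated together (correlations of 0.541 to 0.662 in kidney and 0.373 to 0.736 in forebrain). Kidney and brain EC libraries of the same number also did (0.204 to 0.491). No libraries were duplicates of each other.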

Additional observations from a re-analysis of the deposited data

How the results depend on the processing

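Counting error was small for the kidney values, while the brain values of Wnt11, Wnt9b and Krt8 rest on few reads, and Gata3 varied widely between forebrain libraries. Counts of called genes in the kidney translatome against the kidney transcriptome changed from 0 to 3 at an adjusted p of 0.05, 2 with DESeq2 and 5 with the tissue sample as a replicate block, and ran from 0 to 1 when 1 library was left out. For the interaction they changed from 0 to 2 at 0.05, 1 with DESeq2 and 3 with the block, and ran from 0 to 1 with 1 library left out. The forebrain translatome against its transcriptome gave 2 in place of 0 at 0.05, and 0 in each fit with 1 library left out. Limma with either pseudocount called 2 in place of 4 in the Emx1 lineage, where Wnt9b and Etv5 no longer passed. Number-blocked fits of EC against whole-kidney libraries stand for no pairing (correlations of -0.1669 to 0.0992 for equal numbers), and one called Krt8 lower against the transcriptome. The cause of these changes was not tested. With 1 library left out, the counts ran from 7 to 8 for the kidney EC against the kidney translatome, 7 to 9 against the kidney transcriptome and 3 to 4 for the Emx1 lineage, and stayed at 8 for kidney against brain EC, 4 for brain EC against forebrain and 9 for both organ comparisons. The block changed no other call count by more than 1.5 times. For the 0.05 counts of the interaction and the forebrain, the share of all rows is not given here. Nor is it given for the limma counts or for the counts with 1 library left out.

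Directions turned only for values that had not passed the test. With 1 library left out, the kidney translatome against the transcriptome ran from -0.1216 to 0.0057 on the log2 scale for Wnt11, from -0.062 to 0.1157 for Gata3 and from -0.0748 to 0.0289 for Etv4, and Etv4 was 0.0561 in the lane holding both groups. In the forebrain the same comparison ran from -0.287 to 0.5989 for Gata3, from -0.0821 to 0.0197 for Etv4 (0.1132 in the shared lane) and from -0.1213 to 0.1825 for Krt8. The brain EC against forebrain value of Wnt9b ran from -0.1632 to 0.1426, and that of Krt18 was -0.0462 with total counts and -0.0358 and -0.0636 with limma at pseudocounts of 1 and 0.1. Gata3 in the Emx1 lineage ran from -0.4793 to 0.3251. In the interaction, Gata3 ran from -0.5494 to 0.3149 and Etv4 from -0.0372 to 0.073, with Etv4 at -0.0056 under the block and -0.0061 with limma, and Wnt9b at 0.0604 with limma. Of the values of single genes under all alternatives, 1348 kept direction and side of the threshold, 37 came to pass it, 6 ceased to pass it and 31 turned. Total counts moved the median of all rows from -0.10 to -0.53 for kidney EC against the kidney transcriptome and from 0.02 to 0.20 for kidney against forebrain in total RNA.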
